A study of Mus musculus with 64 samples.

Results

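The NMDA receptor is built from 7 subunit genes, Grin1, Grin2a, Grin2b, Grin2c, Grin2d, Grin3a and Grin3b, and these 7 of the 55401 genes in the counts table were chosen by name. Their messenger RNA was measured by bulk sequencing in 2 mouse brain regions, the prefrontal cortex (PFC, labelled frontal cortex) and the whole hypothalamus. Each mouse was injected once, intraperitoneally, with psilocybin, a serotonergic psychedelic, at 3 mg/kg, and controls were given isotonic saline instead. Mice were killed 3 h or 4 weeks after the injection. All groups were chow-fed male C57BL/6J mice that were 10 weeks old at injection, so mice harvested at 4 weeks were also older than mice harvested at 3 h, and age and time since injection cannot be told apart. Each of 32 mice gave both regions, which made 64 libraries in 8 groups of 8. The 62 libraries with over 1000000 counts were used, and 1 saline library of the hypothalamus at 3 h and 1 psilocybin library of the PFC at 4 weeks fell below that limit, which left 7 in each of those groups.

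NMDA receptors are ion channels opened by glutamate together with a co-agonist, glycine or D-serine, and they pass calcium only when the membrane is depolarised, which makes them central to synaptic plasticity. Every receptor contains GluN1, the product of Grin1, joined by GluN2 subunits, which bind glutamate and set how long the channel stays open, or by GluN3 subunits, which bind glycine and lower calcium entry. GluN2A and GluN2B dominate in the adult forebrain, GluN2C is best known from cerebellar granule cells and astrocytes, GluN2D from interneurons and deep brain nuclei, GluN3A from young neurons and GluN3B from motor neurons.

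The genes lie on 7 chromosomes in GRCm38, at chr2:25291181-25319095 for Grin1 (minus strand), chr16:9567898-9994923 for Grin2a (minus), chr6:135713233-136173511 for Grin2b (minus), chr11:115249169-115267243 for Grin2c (minus), chr7:45831883-45878378 for Grin2d (minus), chr4:49661611-49845549 for Grin3a (minus) and chr10:79970715-79977190 for Grin3b (plus). RefSeq gave a window before its own gene start for 4 of the members, Grin1, Grin2c, Grin2d and Grin3b, and these starts need not be those of the coordinates above. The Grin2d window lies inside the gene as annotated here, in an exon, so it is not described. The 250 bases before the start of Grin1 (chr2:25319188-25319437, minus strand) and Grin2c (chr11:115267244-115267493, minus strand) are shown, 5′ to 3′ in GRCm38.p6, because these are the members with such an entry that were higher in the PFC. Capitals mark the letters GGGCGG, searched on both strands with overlaps counted.
Grin1: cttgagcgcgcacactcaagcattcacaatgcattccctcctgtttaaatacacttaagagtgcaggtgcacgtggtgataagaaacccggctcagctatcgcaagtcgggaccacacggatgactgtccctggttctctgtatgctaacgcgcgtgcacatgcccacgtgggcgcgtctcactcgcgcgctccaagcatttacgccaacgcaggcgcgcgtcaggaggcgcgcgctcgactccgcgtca
Grin2c: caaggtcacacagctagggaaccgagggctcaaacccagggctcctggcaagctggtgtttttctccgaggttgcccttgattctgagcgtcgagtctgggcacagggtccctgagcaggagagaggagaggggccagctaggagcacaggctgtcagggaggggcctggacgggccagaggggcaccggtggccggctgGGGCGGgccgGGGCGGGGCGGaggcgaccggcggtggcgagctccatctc
Grin2c held these letters at 3 places, of which the last 2 overlap, and Grin1 and Grin3b held them at 0, while 32.7% of 32851 RefSeq windows of this length held them at least once. The Grin1 window had 27 CpG pairs and 58.8% G and C, and the Grin2c window 15 and 68.8%, against medians of 6 and 52.4% over all windows. Grin3b, the member with the lowest level, had 2 CpG pairs and 46%.

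The libraries held between 8061033 and 70361839 counts (median 18287978.5). Levels are given in CPM, counts per 1000000 counts of the TMM-scaled library, or in RPKM, which divides by gene length as well. RPKM was used to set genes beside each other. Its length is the union of annotated exons and not that of the transcripts present, so orders and shares between genes depend on it. Summed CPM of 6 cortical excitatory neuron markers ranged from 1333 to 1935 in the PFC and from 50.1 to 167 in the hypothalamus. The 8 hypothalamic markers, among them the orexin and vasopressin genes Hcrt and Avp, summed to between 323 and 2687 in the hypothalamus. In the PFC they summed to between 0.938 and 12.9. No marker was at 0 counts in all of the 62 libraries. In the hypothalamus, 6 thalamic markers, some also known from hypothalamic cells, summed to between 506 and 1078. A pair of libraries had the lowest quality weights in limma, where a low weight marks a noisy library. Psilocybin replicate 5 of the hypothalamus at 4 weeks had a weight of 0.0276. It also had the highest sum of hypothalamic markers (2687) and the lowest of astrocyte markers (2422). Psilocybin replicate 7 of the PFC at 3 h had a weight of 0.12. The next lowest were saline replicates 3, 5 and 4 of the PFC at 3 h (0.275, 0.286 and 0.323). Single libraries stood apart by markers too. Saline replicate 6 of the PFC at 4 weeks had a striatal sum of 1184 (median of the PFC 165). A saline library of the hypothalamus at 4 weeks had a choroid plexus sum of 1238 (median of the region 44.1).

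All 7 subunits differed between the regions, averaged over the 4 conditions of treatment and time. Grin1, Grin2a, Grin2b and Grin2c were higher in the PFC, and Grin2d, Grin3a and Grin3b were higher in the hypothalamus. The test was edgeR's quasi-likelihood fit of group and extraction pool (the batch of RNA extraction named in the labels), with p adjusted by Benjamini-Hochberg over 18971 tested genes, and 76.2% of those genes were past the adjusted p of 0.05 in this comparison, 39.6% higher and 36.5% lower in the PFC. Each pool held libraries of 1 region only, so the fit could not separate region from extraction pool. DESeq2 and limma called 7 of 7 as well, against 76.9% and 81.5% of all genes. Being called was therefore common, and the members are better read by size. Their median absolute log2 fold change was 1.07, against 0.38 over all tested genes.

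Grin1, which encodes the subunit that every receptor needs, ranged from 227 to 413 CPM in the PFC (median 309) and from 152 to 263 CPM in the hypothalamus (median 189). The ranges of the regions overlapped, yet its level was higher in the PFC in 30 of the 30 mice with both libraries. Its log2 fold change of PFC over hypothalamus was 0.66 (SE 0.0575, edgeR adjusted p = 4.99e-16). In bulk tissue, fewer cells of a type and less RNA per cell cannot be told apart, and this holds for each difference between the regions. Marker sums moved with the region too, as given above for neurons, those of astrocytes were 6462 ± 990 CPM in the PFC and 3622 ± 520 CPM in the hypothalamus, and those of oligodendrocytes 4063 ± 1215 and 8239 ± 1394 CPM (SD, n = 31 each). Microglial markers summed to 424 ± 84.2 CPM in the PFC and 231 ± 32.4 in the hypothalamus and endothelial markers to 211 ± 25.3 and 157 ± 39.9, with all 6 of each list higher in the PFC. All 6 oligodendrocyte markers were higher in the hypothalamus, whereas the astrocyte sum was mostly that of Slc1a2 (4571 against 1782 CPM), and 3 of its 6 markers, Gfap, Gja1 and Aqp4, were higher in the hypothalamus. Their part in the differences of the subunits was not tested.

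Grin2a had the largest difference of the 7. It ranged from 129 to 308 CPM in the PFC (median 203) and from 19.5 to 58.8 CPM in the hypothalamus (median 44.6), and no hypothalamic library reached the lowest of the PFC. The log2 fold change was 2.25 (SE 0.0752, edgeR adjusted p = 2.31e-35), a 4.76-fold difference. Grin2b, the other main forebrain GluN2 gene, ranged from 406 to 841 CPM in the PFC (median 514) and from 48.6 to 265 CPM in the hypothalamus (median 197). The regions did not overlap here either, and the log2 fold change was 1.54 (SE 0.0826, edgeR adjusted p = 6.48e-25). The lowest Grin2a and Grin2b values of the hypothalamus both came from psilocybin replicate 5 at 4 weeks. Without that library, the log2 fold changes were 2.23 for Grin2a and 1.51 for Grin2b.

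Grin2c and Grin2d moved in opposite directions. Grin2c ranged from 46.5 to 83.0 CPM in the PFC (median 60.0) and from 20.6 to 43.1 CPM in the hypothalamus (median 30.4), with a log2 fold change of 0.92 (SE 0.0549, edgeR adjusted p = 5.04e-23). Grin2d ranged from 6.25 to 16.8 CPM in the PFC (median 9.41) and from 24.0 to 50.02 CPM in the hypothalamus (median 33.4), with a log2 fold change of -1.78 (SE 0.0731, edgeR adjusted p = 5.90e-31). For both genes the regions did not overlap, and all 30 mice showed the same direction. Interneuron markers, a class in which Grin2d is known to be used, summed to 1218 ± 84.1 CPM in the PFC and 1066 ± 123 CPM in the hypothalamus (SD, n = 31 each). Of these 6 markers, 4 were higher in the PFC, with Lamp5 at 353 against 17.1 CPM, and 2 were higher in the hypothalamus, Gad2 at 205 against 487 CPM and Gad1 at 392 against 403 CPM. These markers are levels of RNA that do not count interneurons in either region, and their part in the Grin2d difference was not tested. The Grin2d gene overlaps Kdelr1 on the opposite strand, which drew 64202 counts over the used libraries against 26449 for Grin2d. The kit marks strand, and only read pairs with both ends on 1 strand were counted, but whether that strand had to be the strand of the gene is not given in the sources used here, so the share of Grin2d counts that may belong to its neighbour was not tested.

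Both GluN3 genes were higher in the hypothalamus. Grin3a ranged from 43.1 to 65.0 CPM in the PFC (median 52.2) and from 68.7 to 128 CPM in the hypothalamus (median 111). The regions did not overlap, and the log2 fold change of -1.07 had the smallest error of the 7 members (SE 0.0351, edgeR adjusted p = 4.74e-36). Grin3b was at the limit of detection, with 0 to 17 counts per library in the PFC (median 3) and 0 to 21 in the hypothalamus (median 9), and 4 PFC and 2 hypothalamic libraries had a count of 0. Its regions overlapped, 23 of 30 mice had more in the hypothalamus, and the log2 fold change was -1.05 (SE 0.260, edgeR adjusted p = 0.000269). Tmem259, which lies across Grin3b on the opposite strand, drew 80602 counts over the used libraries against 386 for Grin3b, and whether reads of the pair were kept apart was not tested.

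**Figure D1:**
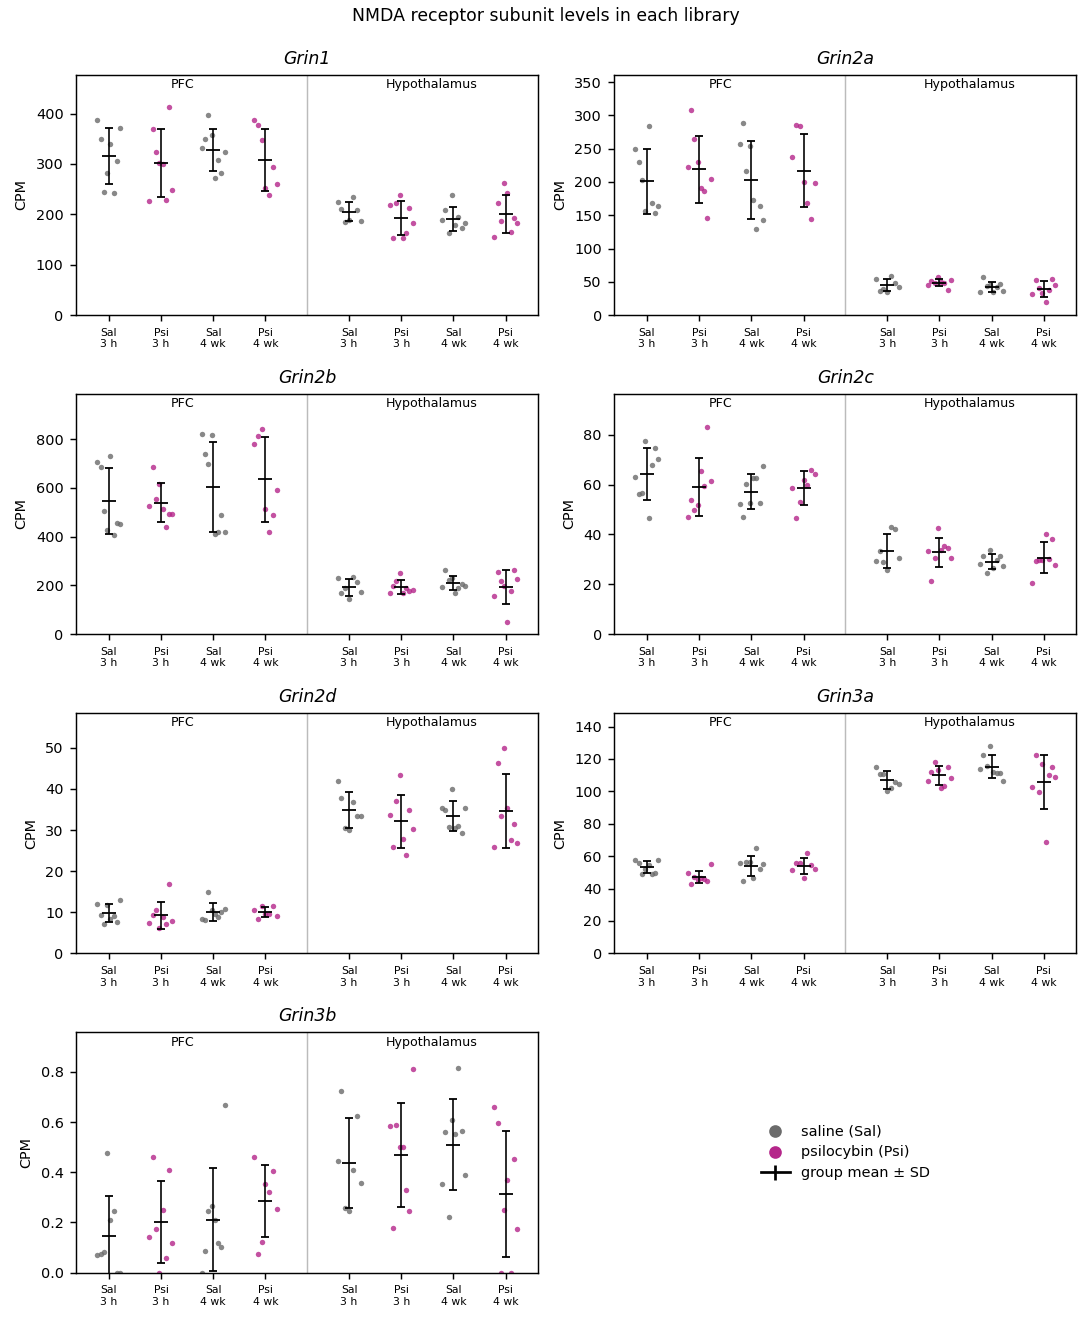
CPM of each subunit in each of the 62 libraries, with group mean ± SD (bars cut at 0 for Grin3b), for saline (grey) and psilocybin (magenta) at 3 h and 4 weeks. The 2 regions separate fully for Grin2a, Grin2b, Grin2c, Grin2d and Grin3a, while the groups within a region overlap for all 7 subunits.

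**Figure D2:**
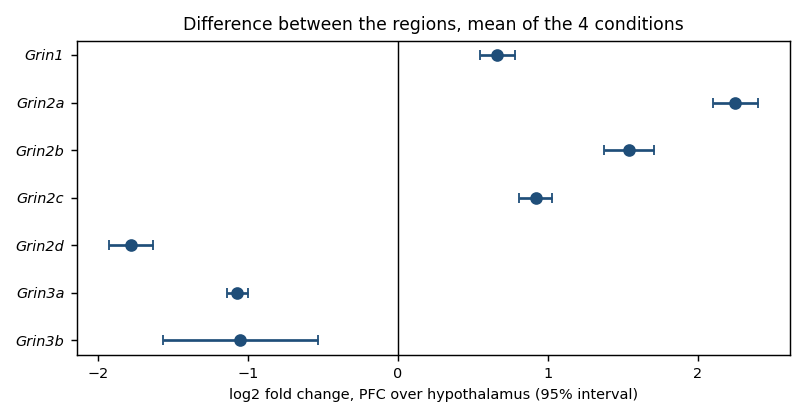
log2 fold change of PFC over hypothalamus with its 95% interval for each subunit (edgeR, 31 libraries per region). Grin1 and Grin2a to Grin2c lie to the right of 0, up to 2.25, and Grin2d, Grin3a and Grin3b lie to the left, down to -1.78.

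The regional difference had the same sign in each of the 4 conditions for all 7 subunits. For Grin2a, the log2 ratio of the group means was 2.17 in saline mice at 3 h, 2.17 in psilocybin mice at 3 h, 2.26 in saline mice at 4 weeks and 2.46 in psilocybin mice at 4 weeks. For Grin2d the corresponding values were -1.83, -1.79, -1.72 and -1.79. The least steady was Grin3b, from -1.59 in saline mice at 3 h to -0.13 in psilocybin mice at 4 weeks, as its few counts allow. Pools A and B held only hypothalamus and pools C and D only PFC, so region and extraction pool cannot be told apart. With that limit, both pairs of extraction pools gave the same order of regions. Comparing PFC pool C with hypothalamic pool A, the difference of mean log2 CPM was 2.46 for Grin2a, 1.68 for Grin2b and -1.90 for Grin2d. Comparing pool D with pool B, it was 2.05, 1.44 and -1.67.

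Per length, Grin1 was the most abundant subunit in both regions, at 32.3 ± 5.68 RPKM in the PFC and 20.3 ± 2.99 RPKM in the hypothalamus (SD, n = 31 each, as for the other levels here). In the PFC, Grin2b followed at 23.3 ± 5.88 RPKM, then Grin2c at 11.9 ± 1.82 and Grin2a at 11.7 ± 2.86, with Grin2c above Grin2a in 16 of 31 libraries. Before division by length (5037 bases for Grin2c and 17933 for Grin2a), their means were 59.7 and 210 CPM. The order of this pair per length turned with extraction pool. In pool C, Grin2a was at 13.7 ± 2.17 and Grin2c at 10.9 ± 1.57 RPKM, and Grin2c was the higher in 1 of 15 libraries. In pool D, Grin2a was at 9.82 ± 2.03 and Grin2c at 12.7 ± 1.64 RPKM, and Grin2c was the higher in 15 of 16 libraries. Grin3a at 4.24 ± 0.436, Grin2d at 1.47 ± 0.345 and Grin3b at 0.0631 ± 0.0512 RPKM completed the order, and each was below the next higher gene in 31 of 31 libraries.

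The hypothalamus had a different second place. Grin3a came after Grin1 there, at 8.91 ± 0.827 RPKM, above Grin2b at 7.95 ± 1.70 in 24 of 31 libraries, with ranges that overlapped. Grin2c at 6.24 ± 1.11 and Grin2d at 5.06 ± 0.908 came next, again with overlapping ranges. Grin2a at 2.44 ± 0.507 RPKM was the lowest of the GluN2 genes, where in the PFC that was Grin2d. The ratio of Grin3a to Grin1 was 0.135 ± 0.0263 in the PFC and 0.447 ± 0.0703 in the hypothalamus, and the summed GluN2 level over Grin1 was 1.52 ± 0.201 and 1.08 ± 0.137. These are ratios of transcripts and not of protein or of assembled receptors.

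Of the summed RPKM of the 4 GluN2 genes, Grin2b made up the largest mean share in both regions, 47.6 ± 4.96% in the PFC and 36.4 ± 5.48% in the hypothalamus. Grin2a made up 24.0 ± 3.27% in the PFC and 11.2 ± 1.64% in the hypothalamus. Grin2d went the other way, from 3.10 ± 0.812% in the PFC to 23.4 ± 3.47% in the hypothalamus. The share of Grin2c, 25.3 ± 6.43% and 28.9 ± 4.87%, overlapped between the regions, although its CPM did not.

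**Figure D3:**
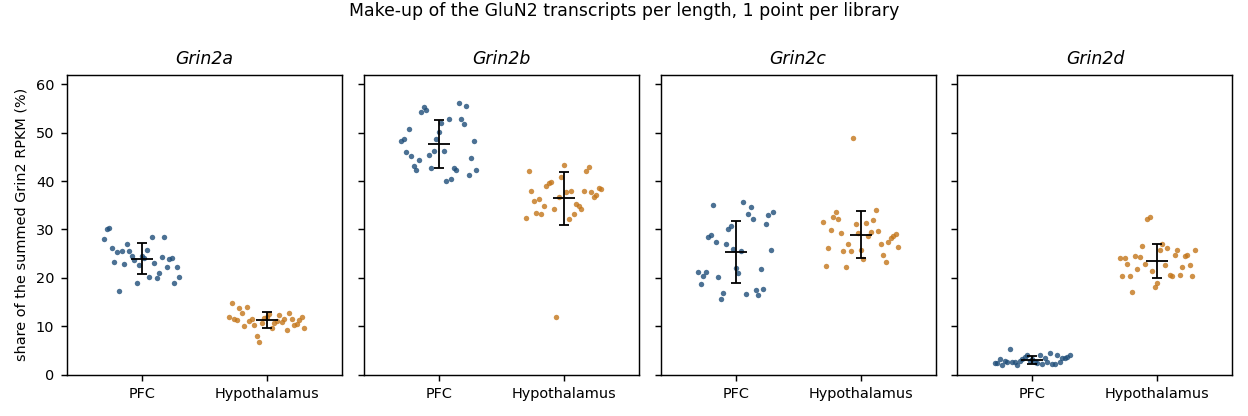
Share of each GluN2 gene in the summed RPKM of the 4 GluN2 genes, in percent, with 1 point per library and the mean ± SD of 31 libraries per region. Grin2d averages 3.10% in the PFC and 23.4% in the hypothalamus, Grin2a 24.0% and 11.2%, and 1 hypothalamic library, psilocybin replicate 5 at 4 weeks, lies far below the rest for Grin2b.

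The ratio of Grin2a to Grin2b RPKM was examined because both genes feed the same pool of forebrain receptors, and because a ratio within a library does not depend on library size. It was 0.506 ± 0.0666 in the PFC and 0.315 ± 0.0612 in the hypothalamus (SD, n = 31 each). Within mice, the PFC had the higher ratio in 29 of 30, by a mean of 0.69 on the log2 scale (SD 0.229), a 1.61-fold difference. The two-sided sign-flip permutation test over mice gave p = 2e-05, the smallest its 100000 resamples can give, or 0.00018 after Benjamini-Hochberg adjustment over the 9 comparisons made of this ratio. The mean difference was 0.78 in the mice of hypothalamic pool A and 0.61 in those of pool B.

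Psilocybin and saline were compared within each region and time point, the question for which the study was designed. In the PFC at 3 h, 0 of the 7 subunits passed the test, against 0.0105% of all tested genes (2 of 18971). In the PFC at 4 weeks, and in the hypothalamus at 3 h and at 4 weeks, 0 of 7 passed as well, against 0% of all genes. At an unadjusted edgeR p under 0.05 there was 1 member in the PFC at 3 h, against 7.23% of all genes, and 0 in each of the other comparisons, against 2.4% in the PFC at 4 weeks and 1.78% and 9.61% in the hypothalamus at 3 h and 4 weeks. DESeq2 and limma with voom quality weights also called 0 of 7 in each of the 4 comparisons, where limma called 6.49% of all genes in the PFC at 3 h and 0% in the others, and DESeq2 called 0.0475% in the PFC at 3 h, 0.1% at 4 weeks, and 0% and 0.0686% in the hypothalamus.

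The member with the small unadjusted p was Grin3a. In the PFC at 3 h it ranged from 43.1 to 55.4 CPM after psilocybin (median 46.2) and from 48.9 to 57.4 CPM after saline (median 53.4). The groups overlapped, with 6 of the 8 psilocybin libraries below all 8 saline libraries. The log2 fold change was -0.17 (SE 0.0688, 95% interval -0.31 to -0.03), and the adjusted p was 0.641 in edgeR, 0.110 in limma and 0.496 in DESeq2, each by Benjamini-Hochberg. Within extraction pools the difference of mean log2 CPM was -0.21 in pool C and -0.13 in pool D, with 4 libraries a side in each. At 4 weeks the PFC means were 54.0 ± 4.73 CPM after psilocybin (SD, n = 7) and 54.0 ± 6.32 CPM after saline (SD, n = 8). In the hypothalamus at 3 h, Grin3a was 110 ± 5.63 CPM after psilocybin (SD, n = 8) and 107 ± 5.39 CPM after saline (SD, n = 7).

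The obligatory subunit and the main GluN2 genes did not pass an unadjusted p of 0.05 in the PFC at 3 h. Grin1 ranged from 227 to 413 CPM after psilocybin (median 302) and from 242 to 387 CPM after saline (median 323), a log2 fold change of -0.07 (95% interval -0.29 to 0.16). Grin2a ranged from 145 to 308 CPM after psilocybin (median 213) and from 154 to 283 CPM after saline (median 185), a log2 fold change of 0.10 (95% interval -0.19 to 0.38). Grin2b ranged from 438 to 688 CPM after psilocybin (median 519) and from 406 to 730 CPM after saline (median 480), a log2 fold change of -0.02 (95% interval -0.34 to 0.29). The groups overlapped for all 3 genes. The intervals of Grin2c (-0.35 to 0.08) and Grin2d (-0.38 to 0.20) also included 0. Psilocybin replicate 7 had the highest values of Grin1 and Grin2d in its group, and without it their log2 fold changes were -0.17 and -0.27, still with adjusted p over 0.05 in edgeR (0.493 and 0.359).

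For the subunits other than Grin3b, the 95% intervals of the psilocybin effect reached at most from -0.33 (Grin2d) to 0.45 (Grin2b) in the PFC at 4 weeks, from -0.42 (Grin2d) to 0.42 (Grin2a) in the hypothalamus at 3 h and from -0.43 (Grin2b) to 0.32 (Grin2d) in the hypothalamus at 4 weeks. The lower bound in the hypothalamus at 4 weeks rested on psilocybin replicate 5. Without that library the log2 fold change of Grin2b there moved from -0.11 to 0.03 (SE 0.122), that of Grin2a from -0.10 to 0.0079 (SE 0.137) and that of Grin3a from -0.13 to -0.06 (SE 0.0566), and no member passed. For Grin3b the intervals were far wider, from -0.78 to 1.63 in the PFC at 3 h and from -1.71 to 0.21 in the hypothalamus at 4 weeks. Differences in the response between the regions at each time point, and between the time points in each region, passed the test for 0 of 7 members in all 4 comparisons, against 0% of all genes in edgeR, and limma and DESeq2 called 0 of 7 too, against 0.0422% of all genes in limma and 0% in DESeq2 between regions at 3 h, 0% and 0.338% between regions at 4 weeks, 0.00527% and 0.0211% between times in the PFC, and 0% in both between times in the hypothalamus. At an unadjusted p under 0.05 there was 1 member, Grin3a, against 2.78% of all genes, for the 3 h response in the PFC minus that in the hypothalamus (log2 difference -0.20, SE 0.0983, adjusted p = 1 in edgeR).

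**Figure D4:**
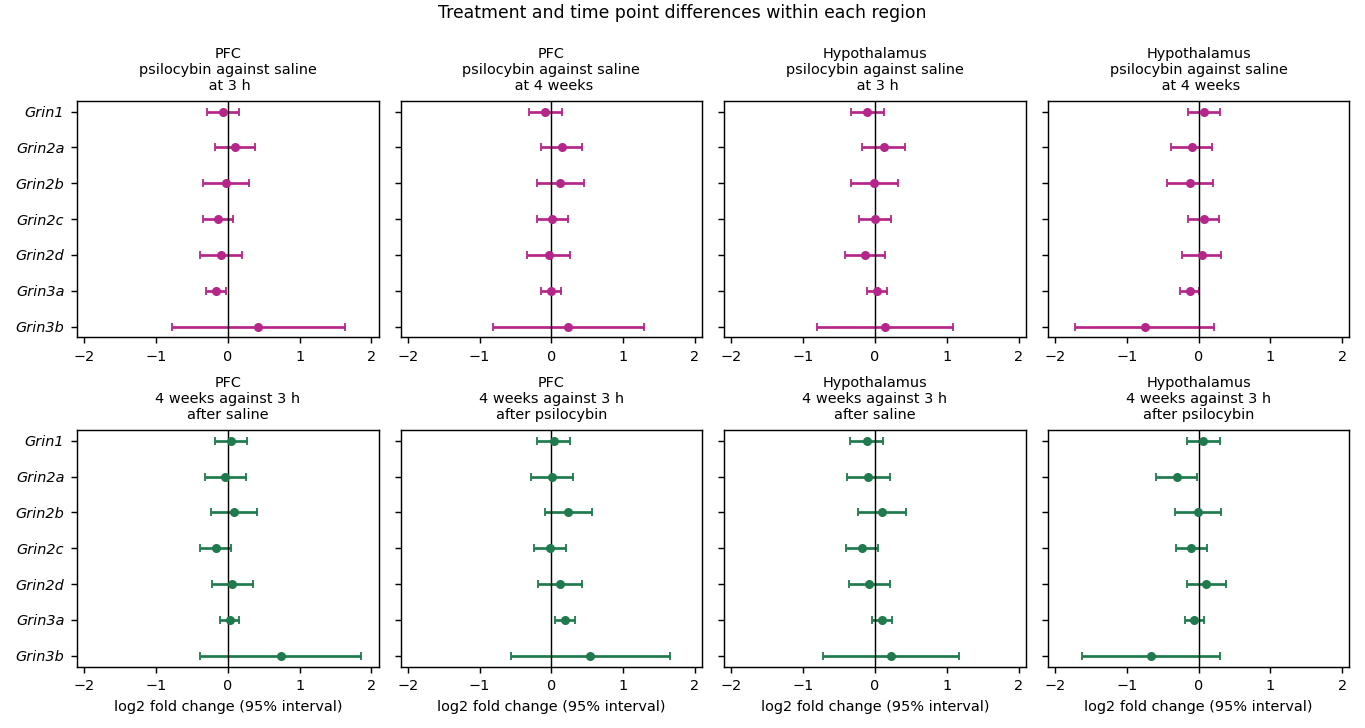
log2 fold change with its 95% interval for each subunit (edgeR), for psilocybin against saline (upper panels) and for 4 weeks against 3 h (lower panels) in each region. The intervals include 0 except for Grin3a in the PFC at 3 h (-0.17) and in the PFC after psilocybin (0.19) and Grin2a in the hypothalamus after psilocybin (-0.31), and none of these passed the adjusted test.

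Comparing 4 weeks with 3 h within each treatment, 0 of 7 members passed in the PFC after saline, against 4.72% of all genes, and 0 of 7 in the PFC after psilocybin, against 5.96%. In the hypothalamus 0 of 7 passed after saline, against 0.685% of all genes, and 0 of 7 after psilocybin, against 1.16%. The unadjusted edgeR p was under 0.05 for 1 member, Grin3a, in the PFC after psilocybin, for 1 member, Grin2a, in the hypothalamus after psilocybin, and for 0 members after saline. Of all genes, 20.4% and 17.4% had such a p after psilocybin in the PFC and hypothalamus, and 18% and 8.09% after saline. DESeq2 called 0 of 7 in each of these comparisons, against 5.98% and 7.97% of all genes in the PFC after saline and psilocybin and 1.01% and 2.8% in the hypothalamus. Limma called 2 of 7 in the PFC after psilocybin, against 19.1% of all genes, and 0 of 7 in the others, against 5.97% in the PFC after saline and 7.25% and 3.29% in the hypothalamus after saline and psilocybin.

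Grin3a in the PFC after psilocybin ranged from 46.8 to 62.2 CPM at 4 weeks (median 54.5) and from 43.1 to 55.4 CPM at 3 h (median 46.2). The groups overlapped, and 3 of the 7 libraries of 4 weeks lay above all 8 of 3 h. The log2 fold change was 0.19 (SE 0.0711, edgeR adjusted p = 0.0975), and it was 0.02 after saline (95% interval -0.11 to 0.16). The adjusted p moved across the threshold with the filter, the tool and single libraries. The edgeR adjusted p was 0.0447 with at least 10 counts required in every library, 0.0475 without psilocybin replicate 8 of the PFC at 3 h, the highest of its group, and 0.0237 without psilocybin replicate 5 of the hypothalamus at 4 weeks, which is in neither group but enters the shared estimate of the spread. In limma, which gives noisy libraries less weight, Grin3a (log2 fold change 0.18, adjusted p = 0.0155) and Grin2b (0.30, adjusted p = 0.0428) were past the threshold. Within extraction pools the Grin2b difference of mean log2 CPM after psilocybin was 0.45 in pool C and 0.048 in pool D, and after saline it was 0.43 in pool C and -0.20 in pool D. Since both this comparison and that of psilocybin with saline at 3 h use the same psilocybin libraries of the PFC at 3 h, they are not separate evidence about Grin3a.

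Grin2a in the hypothalamus after psilocybin ranged from 19.5 to 54.7 CPM at 4 weeks (median 38.9) and from 38.2 to 57.8 CPM at 3 h (median 49.4), with a log2 fold change of -0.31 (SE 0.143, edgeR adjusted p = 0.257). The log2 fold change was -0.11 in limma (adjusted p = 0.674) and -0.30 in DESeq2 (adjusted p = 0.216). The lowest library was again replicate 5, and without it the log2 fold change was -0.20 (edgeR adjusted p = 0.680). After saline it was -0.09 (95% interval -0.39 to 0.21). Grin2b, its counterpart, had log2 fold changes of 0.10 after saline and -0.01 after psilocybin in the hypothalamus, and 0.14 after psilocybin without replicate 5.

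The ratio of Grin2a to Grin2b was lower at 4 weeks than at 3 h in each of the 4 comparisons, and 1 of them passed. In saline mice, the ratio in the hypothalamus ranged from 0.283 to 0.348 at 3 h (median 0.331, n = 7) and from 0.243 to 0.310 at 4 weeks (median 0.279, n = 8). The groups overlapped, and 4 of the 8 libraries of 4 weeks lay below all of those of 3 h. The log2 difference was -0.20, with p = 0.00715 in a two-sided exact permutation test and an adjusted p of 0.0322. It was -0.17 in extraction pool A and -0.21 in pool B. The call depended on single libraries, since leaving out any of 8 of them gave an adjusted p between 0.0603 and 0.0689. It was also lost with mice paired by cage (exact sign-flip p = 0.0156, adjusted p = 0.125), where 7 pairs were too few to pass after adjustment.

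In psilocybin mice, 7 of the 8 hypothalamic libraries of 4 weeks had a ratio below all 8 libraries of 3 h, and the last, replicate 5, was above all of them. With it, the log2 difference was -0.22 (exact permutation p = 0.155, adjusted p = 0.232), and without it -0.35 (exact permutation p = 0.000311, adjusted p = 0.0014). In the PFC the log2 difference was -0.12 after saline (exact permutation p = 0.116, adjusted p = 0.216) and -0.22 after psilocybin (exact permutation p = 0.0513, adjusted p = 0.154), and the latter was -0.28 (exact permutation p = 0.00524, adjusted p = 0.0214) without psilocybin replicate 7 at 3 h. Psilocybin against saline passed the test of this ratio at neither time in either region (log2 differences 0.02 to 0.12, adjusted p from 0.216 to 0.829 by exact permutation). In the hypothalamus at 4 weeks the difference was 0.10 with psilocybin replicate 5 and -0.026 without it (exact permutation p = 0.688, adjusted p = 0.774). Without psilocybin replicate 7, the difference in the PFC at 3 h was 0.18 (exact permutation p = 0.0146, adjusted p = 0.0329), and within extraction pools it was 0.24 in pool C and -0.0028 in pool D, with replicate 7 included.

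**Figure D5:**
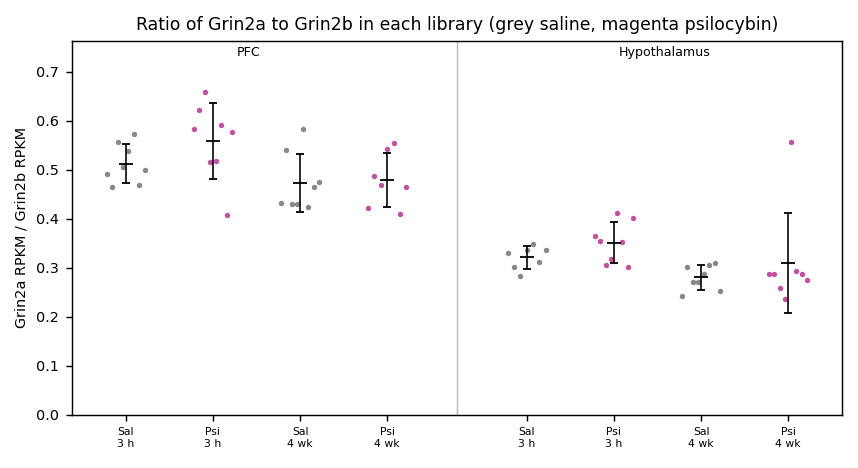
Ratio of Grin2a to Grin2b RPKM in each of the 62 libraries, with group mean ± SD, for saline (grey) and psilocybin (magenta) at 3 h and 4 weeks. The PFC lies near 0.506 and the hypothalamus near 0.315, and the hypothalamic psilocybin library of 4 weeks at 0.557 is replicate 5.

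Extraction pool separated some members more than treatment or time did. In the PFC, 3 of 7 members differed between pools D and C, against 24.9% of all genes. Grin2a was 246 ± 38.8 CPM in pool C (SD, n = 15) and 176 ± 36.5 CPM in pool D (SD, n = 16), a log2 difference of -0.49 (edgeR adjusted p = 0.000409). Grin2b was 681 ± 129 CPM in pool C and 483 ± 82.3 CPM in pool D, also -0.49 (edgeR adjusted p = 0.00131), and the ratio of the pair was 0.507 ± 0.0727 in pool C and 0.505 ± 0.0627 in pool D. Grin2c went the other way, from 55.1 ± 7.88 to 64.1 ± 8.24 CPM (log2 difference 0.23, edgeR adjusted p = 0.0238). In the hypothalamus, 0 of 7 differed between pools B and A, against 17.4% of all genes, with 2 members, Grin2d and Grin3a, at an unadjusted edgeR p under 0.05, against 32.8% of all genes. The pools hold mice of different cages, with 3 or 4 used mice of each condition, so a difference between pools cannot be told apart from one between their sets of cages. Within a pool, cage mates were no more alike over all genes than mice of other cages (mean correlation of deviations from the group means 0.0806 against 0.0860 in the PFC and 0.0723 against 0.0765 in the hypothalamus). Marker sums of the PFC moved with pool too, with oligodendrocyte markers at 3291 ± 951 CPM in pool C and 4787 ± 976 in pool D, astrocyte markers at 5862 ± 801 and 7025 ± 814, microglial markers at 369 ± 76.4 and 474 ± 55.5, striatal markers at 160 ± 55.4 and 323 ± 265, and cortical excitatory neuron markers at 1705 ± 174 and 1514 ± 181 (SD, n = 15 and 16). Their part in the pool differences was not tested.

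Partners of the receptor were read from 4 lists of 58 genes, all of which passed the filter on low counts. In the regional comparison 54 of 58 were called by edgeR, 43 higher and 11 lower in the PFC, beside 76.2% of all tested genes called, 39.6% higher and 36.5% lower. Of the postsynaptic scaffolds that anchor the receptor, 14 of 15 were called and all 14 were higher in the PFC, with log2 fold changes of 2.08 for Dlgap1, 1.10 for Dlg3 and 1.16 for Dlg4, the gene of PSD-95. The list had a median of 1.27, against 0.02 over all tested genes. Of the kinases, phosphatases and other signalling enzymes, 17 of 17 were called, 14 higher and 3 lower in the PFC, among them the kinase genes Camk2a (3.25) and Prkca (1.76).

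The co-agonist genes were the list with more members lower in the PFC, 7 of 13, beside 5 that were higher. Srr, which encodes the enzyme that makes D-serine, was higher in the PFC (log2 fold change 1.05, 77.3 ± 6.72 against 37.3 ± 3.87 CPM), whereas the glycine transporter gene Slc6a9 was lower (-1.77, 22.05 ± 3.50 against 75.0 ± 11.1 CPM), as was Slc7a10, the gene of a transporter of D-serine and glycine (-0.68, 31.0 ± 2.88 against 49.6 ± 6.13 CPM; SD, n = 31 each). Of the trafficking and auxiliary partners, 10 of 13 were higher and 1 was lower in the PFC, among them Neto1 (1.46), Gipc1 (0.97) and Kif17 (0.68), the gene of a motor that carries GluN2B. In edgeR, psilocybin against saline gave 0 of 58 in all 4 comparisons, against 0.0105% of all genes in the PFC at 3 h and 0% in the others. The lists were not read in limma, which called 6.49% of all genes in the PFC at 3 h. Between time points, 2 of 58 fell from 3 h to 4 weeks in the PFC after saline, against 2.39% of all genes that fell, Shank2 from 314 ± 19.5 to 255 ± 30.0 CPM (log2 fold change -0.31, edgeR adjusted p = 0.0358) and Ephb2 from 25.5 ± 3.58 to 20.6 ± 4.16 CPM (-0.33, edgeR adjusted p = 0.0318; SD, n = 8 each), and 0 of 58 passed in the other 3 time comparisons, against 5.96% of all genes in the PFC after psilocybin and 0.685% and 1.16% in the hypothalamus after saline and psilocybin.

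Variation between libraries within groups was described by Spearman's rho of log2 CPM over the 62 libraries, after group and extraction pool were taken out. The libraries share their depth and dissection, so these are descriptions only. Among the members, Grin2a and Grin2b varied together most (0.76), followed by Grin1 and Grin2d (0.67), while Grin2a and Grin2d did not (-0.05). Among the genes most like Grin2a were Kcnh7 (0.83) and Gria3 (0.80), and those most like Grin2b were Arhgap32 (0.85), Lrrc7 (0.85) and Ptprj (0.84). Grin1 had the closest likeness of all members, to Adgrb1 (0.93), Dctn1 (0.93) and Klc2 (0.92).

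The other members had looser likenesses. Grin2c was most like Spns1 (0.72), Dlgap3 (0.72) and Wrap73 (0.72), and Grin2d most like Sema6b (0.78), Pitpnm1 (0.76) and Caskin1 (0.75). Grin3a was most like Dnajc27 (0.73), Tbc1d24 (0.69) and Synj1 (0.68). The values for Grin3b, with Sf3b4 (0.59), Hspa1b (0.49) and Vwa1 (0.48), rest on its few counts.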

How the data were processed

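RNA was taken from the PFC and the hypothalamus of 32 mice. The authors prepared stranded poly-A libraries, aligned reads to GRCm38 with STAR 2.7.2b and counted them per GENCODE gene with featureCounts 1.6.2, and the deposited values are whole-number counts that were neither normalised nor filtered. The members, lists and tests were chosen with earlier results of these data known.

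Of the 55401 genes, 55141 were matched to a symbol. Groups, cages and extraction pools came from the labels. The authors also left out a library rich in wound-healing and immune genes, which the labels do not name, so no library was removed here on that ground. The 62 libraries past 1000000 counts entered edgeR 4.0.16 in R 4.3.3 (filterByExpr by group with a minimum count of 10, TMM, robust quasi-likelihood fit of group and extraction pool), which tested 18971 genes including all 7 members. Calls are Benjamini-Hochberg adjusted p under 0.05. Within a region, p-values measure the spread between these mice. Between regions, the edgeR fit did not pair the 2 libraries of a mouse, so its p-values measure the spread between libraries. RPKM was computed from the deposited gene length (union of exons). The ratio of Grin2a to Grin2b was tested by permutation in scipy 1.17.1. The genes named beside the members were, by rule, the 3 most alike of each member and the 3 called genes of each list with the smallest p, of which 2 are not reported here. The edgeR fit was tested on simulated data for psilocybin against saline in the PFC at 3 h only.

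Alternatives were DESeq2 1.42.0, limma 3.58.1 with voom quality weights and the animal as block (correlation 0.0282), other size factors, 2 other filters, no extraction pool, replicate blocks, all 64 libraries, only the groups compared, and each library left out in turn. The replicate number is the cage number, so it pairs different mice of 1 cage within a region and the same mouse between regions. Deviations from group means correlated by 0.0806 on average between cage mates in the PFC and 0.0723 in the hypothalamus, by 0.0860 and 0.0765 between mice of 1 pool but other cages, by -0.0831 and -0.0716 between pools, and by 0.0854 between the regions of 1 mouse. No 2 libraries of a group were alike, with a chi-square per degree of freedom of at least 3.85 in 210 pairs. Depth limits precision mainly for Grin3b.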

Additional observations from a re-analysis of the deposited data

Results flagged for a closer look

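Single libraries lay far from the other samples of their group, by Dixon's test at 95%, in 5 of 64 groups of values checked (7.81%), where chance alone gives about 1 in 20. Psilocybin replicate 7 of the PFC at 3 h had 16.8 CPM of Grin2d, against 6.25 to 10.7 in the other 7. Saline replicate 3 of the PFC at 4 weeks had 15.0 CPM of Grin2d, against 8.05 to 10.8. Psilocybin replicate 5 of the hypothalamus at 4 weeks had 68.7 CPM of Grin3a, against 99.8 to 122, and a log2 ratio of Grin2a to Grin2b of -0.85, against -2.09 to -1.77. Saline replicate 8 of the PFC at 4 weeks had 0.667 CPM of Grin3b, against 0 to 0.264.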

How the results depend on the processing

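Over all alternatives, 3078 member values were recomputed. Of 496 values of called members, 0 changed sign and 0 lost the call, and of 2582 values of members not called, 143 changed sign and 5 passed the threshold. The regional count was 7 except with at least 10 counts in every library, where Grin3b was not tested and it was 6. The psilocybin counts stayed at 0 in every alternative run. In each of these comparisons Grin3b was tested in 24 alternatives and the other members in 26. Members past the threshold in the PFC after psilocybin, 4 weeks against 3 h, numbered 1 with at least 10 counts in every library (Grin3a, edgeR adjusted p = 0.0447) and 2 in limma, and between 0 and 1 with single libraries left out. Other size factors moved the median of all genes by at most -0.04 (log2). The replicate block of cage, or of animal between regions, changed no member's call, but with the cage block the log2 ratio of Grin2a to Grin2b in the hypothalamus after saline, 4 weeks against 3 h, was -0.21 (exact sign-flip p = 0.0156, adjusted p = 0.125), past no threshold, where 7 pairs were too few to pass after adjustment.

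With single libraries left out, that difference lay between -0.23 and -0.17 and lost its call in 8 cases, those of saline replicates 1, 5, 6 and 8 at 3 h and 1, 3, 4 and 8 at 4 weeks (adjusted p 0.0603 to 0.0689). The same ratio lay between -0.35 and -0.17 in the hypothalamus after psilocybin, between -0.28 and -0.18 in the PFC after psilocybin and between 0.081 and 0.18 for psilocybin against saline in the PFC at 3 h. For psilocybin against saline in the hypothalamus at 4 weeks it lay between -0.026 and 0.15. The ratio was not recomputed over all 64 libraries where a near-empty library had 0 counts of Grin2a. The cause of these changes was not tested.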
